A study of Homo sapiens with 6 samples.

Results

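The tricarboxylic acid (TCA) cycle and pyruvate metabolism genes described here were 41 genes taken by symbol from the 60623 genes of an RNA-Seq count table. They cover pyruvate entry into mitochondria and its control, the enzymes of the cycle, the refilling of the cycle, the malic enzymes, and citrate export. The cells were TC28a2, an established line of immortalized human chondrocytes, the cells that make and maintain cartilage. The treated cells received mocetinostat, an inhibitor of histone deacetylases (HDACs), at 2 μM for 24 hours, and the control cells received DMSO, its solvent. Each condition had 3 samples, described by the study as independent experiments, and all 6 come from the same immortalized line, so they show how that line varied and not how donors vary. The deposited table held 4873426 to 11031132 counts per DMSO sample and 1619344 to 5089542 per mocetinostat sample, and mocetinostat replicates 2 and 3 were shallower than every control, which made their low genes less precisely measured. The 41 genes together held 5615 to 39069 counts per sample, which was 0.328% to 0.355% of each library. Values of single samples are given below for DMSO replicates 1 to 3 and then for mocetinostat replicates 1 to 3.

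Pyruvate made by glycolysis is carried into mitochondria and is oxidized there to acetyl-CoA by the pyruvate dehydrogenase complex, which kinases (PDKs) switch off by phosphorylation and phosphatases (PDPs) switch back on. Citrate synthase joins acetyl-CoA to oxaloacetate, and the cycle then returns to oxaloacetate through isocitrate, 2-oxoglutarate, succinyl-CoA, succinate, fumarate, and malate. Citrate that leaves the cycle can be cut by ATP citrate lyase to acetyl-CoA in the cytosol, the substrate for fatty acid synthesis and for histone acetylation, while pyruvate carboxylase and glutamate refill the cycle. Chondrocytes live in poorly oxygenated tissue and make most of their ATP by glycolysis.

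Of the 41 genes, 40 passed the filter on low counts and were tested, and *GLS2* did not. Genes with an adjusted p under 0.05 and a log2 fold change above 1 in edgeR's quasi-likelihood test were called upregulated genes (URGs), and those below -1 downregulated genes (DRGs), both over all 13966 tested genes. There were 8 URGs among the 40 members, *PDK2*, *PDK3*, *PDK4*, *PC*, *PCK1*, *IDH1*, *IDH2*, and *OGDHL*, a share close to the 20.2% of all tested genes that were URGs. Of these URGs, *PDK4* and *PCK1* passed the filter only through their mocetinostat samples, so they could only be called higher. *IDH3B* was the 1 DRG, where 8.18% of all tested genes were DRGs. With the adjusted p alone, 16 members were higher, where 32.9% of all tested genes were, 11 were lower, where 31.4% were, and 13 did not pass, so 27 of the 40 passed in either direction, beside 64.3% of all tested genes. The 3 mocetinostat samples all lay above the 3 DMSO samples for 18 tested members, where 33.7% of all tested genes did so, and all below them for 13, where 32.8% did. The median log2 fold change of the 40 members was 0.05, beside -0.00 over all tested genes, and their summed level was 3418 ± 102 CPM (counts scaled to a common library total) in DMSO and 3523 ± 49.8 in mocetinostat (SD, n = 3 each). The genes therefore moved in both directions in numbers near those of the whole table, and what follows describes which steps moved which way. The split depended on the scaling: relative to *GAPDH*, itself lower by 0.53 on the log2 scale here, 13 members were URGs (31.7% of all tested genes were), none was a DRG (2.03%), 27 were higher (55.2%), and 3 were lower (9.82%) at the adjusted p, while the median of all tested genes moved up by 0.54.

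**Figure D1:**
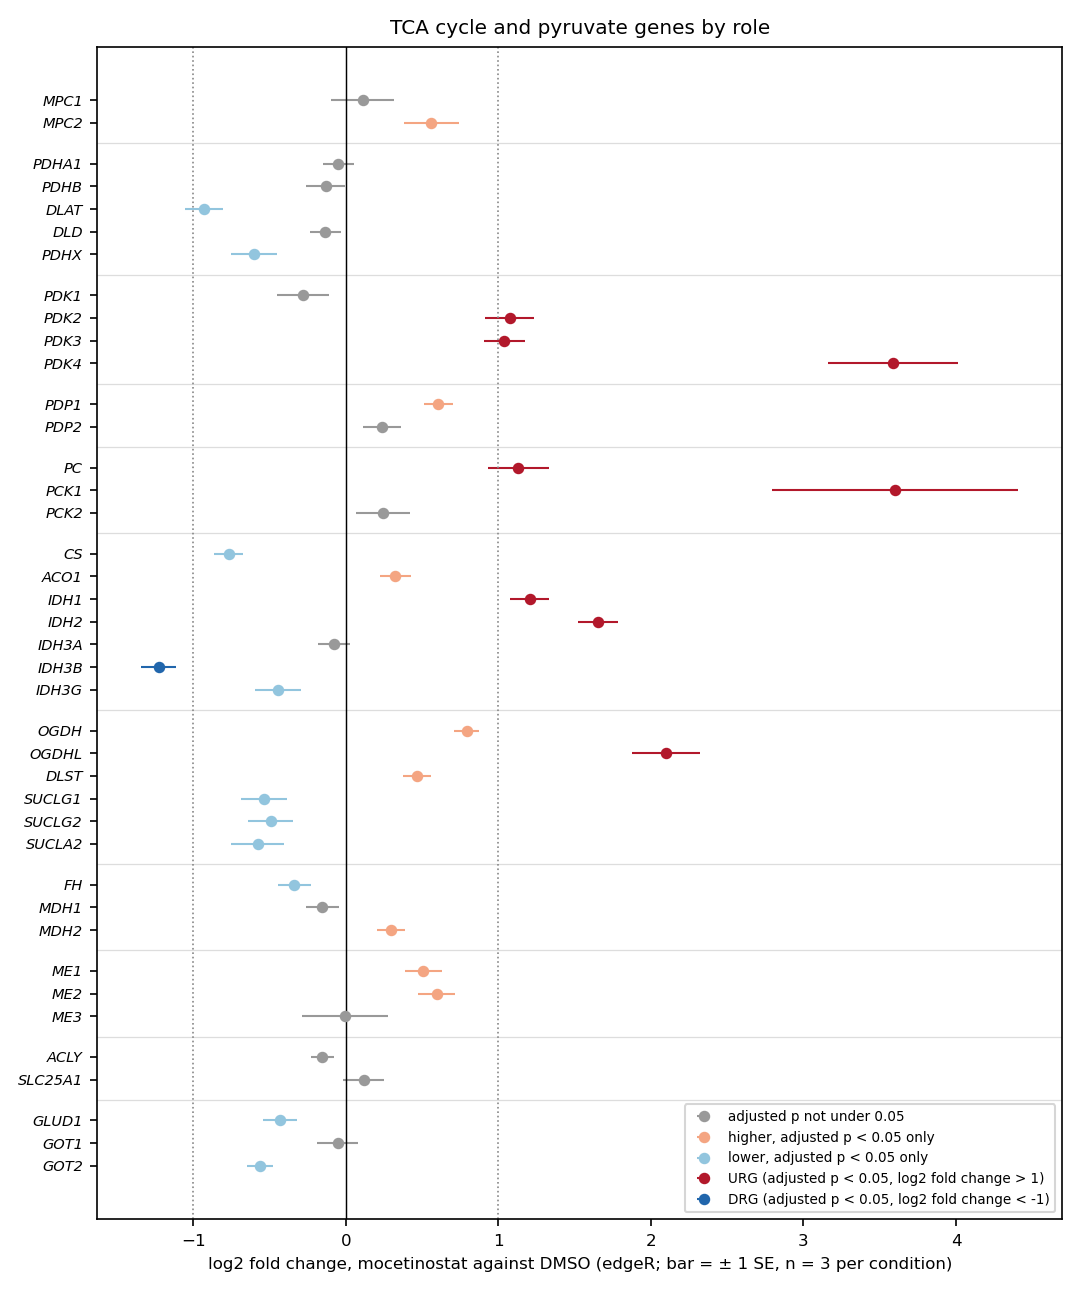
Log2 fold change of mocetinostat against DMSO (x axis) for the 40 tested members, grouped by role from pyruvate entry to glutamate and aspartate enzymes (y axis), with bars of 1 SE on either side from edgeR and dotted or solid lines at 0, 1, and -1. *PDK4* at 3.59 and *PCK1* at 3.60 lie farthest to the right, *PCK1* with a wide bar, and *IDH3B* at -1.22 lies farthest to the left. Relative to *GAPDH*, 14 members would lie on the other side of 0.

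To show the DNA at the starts of genes on which the results turn, the RefSeq promoter windows (GRCh38.p14, 300 bases around the start site, most of them before it) of the 3 kinase URGs, of *OGDHL*, and of the DRG are printed in the direction of transcription. Capitals mark 3 motifs on either strand, the CCAAT box, the GC box with the letters GGGCGG, and the TATA box with the letters TATAAA. Their RefSeq start sites lie 0 to 56 bases from the gene starts that GENCODE 44 gives.
PDK2, chr17:50094487-50094786, plus strand: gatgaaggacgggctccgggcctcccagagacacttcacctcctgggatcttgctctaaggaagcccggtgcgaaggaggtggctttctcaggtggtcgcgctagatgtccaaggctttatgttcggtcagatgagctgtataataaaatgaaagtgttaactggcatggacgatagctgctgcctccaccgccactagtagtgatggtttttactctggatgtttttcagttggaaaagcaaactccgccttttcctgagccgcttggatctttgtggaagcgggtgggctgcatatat
PDK3, chrX:24465036-24465335, plus strand: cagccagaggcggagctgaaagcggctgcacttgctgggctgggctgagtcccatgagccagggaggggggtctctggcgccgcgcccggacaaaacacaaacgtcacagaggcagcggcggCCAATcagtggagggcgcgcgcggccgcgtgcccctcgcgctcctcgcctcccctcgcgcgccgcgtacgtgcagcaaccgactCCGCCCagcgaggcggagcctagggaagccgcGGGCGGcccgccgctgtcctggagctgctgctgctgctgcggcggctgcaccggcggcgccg
PDK4, chr7:95596467-95596766, minus strand: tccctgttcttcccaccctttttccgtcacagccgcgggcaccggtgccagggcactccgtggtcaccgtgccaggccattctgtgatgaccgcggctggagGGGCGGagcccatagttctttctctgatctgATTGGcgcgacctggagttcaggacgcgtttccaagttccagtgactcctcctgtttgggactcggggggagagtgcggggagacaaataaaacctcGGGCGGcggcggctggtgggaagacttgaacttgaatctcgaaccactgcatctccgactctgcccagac
OGDHL, chr10:49762274-49762573, minus strand: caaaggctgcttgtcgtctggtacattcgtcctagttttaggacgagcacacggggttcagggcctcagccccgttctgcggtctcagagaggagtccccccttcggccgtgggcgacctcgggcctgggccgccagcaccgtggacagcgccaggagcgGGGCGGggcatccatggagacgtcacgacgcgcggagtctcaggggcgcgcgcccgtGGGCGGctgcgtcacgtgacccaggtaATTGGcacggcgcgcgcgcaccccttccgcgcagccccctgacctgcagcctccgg
IDH3B, chr20:2664167-2664466, minus strand: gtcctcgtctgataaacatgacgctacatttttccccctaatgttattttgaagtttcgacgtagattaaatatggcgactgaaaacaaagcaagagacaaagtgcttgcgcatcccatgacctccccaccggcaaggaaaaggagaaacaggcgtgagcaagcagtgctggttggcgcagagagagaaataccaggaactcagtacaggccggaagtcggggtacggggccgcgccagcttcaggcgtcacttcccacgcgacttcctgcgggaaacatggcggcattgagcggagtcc
The 7 URGs with a window differed among themselves: those of *PDK3*, *PDK4*, *PC*, and *OGDHL* hold both CCAAT and GGGCGG, that of *IDH1* only GGGCGG, and those of *PDK2* and *IDH2*, like that of *IDH3B*, none of the 3 motifs. All motifs were searched on both strands, and matches of different motifs may overlap. Windows were found for 38 of the 41 members, all but *PCK1*, *PDP1*, and *OGDH*. Their median GC content was 68.0%, beside 58.7% over all 35114 RefSeq windows, and their median ratio of observed to expected CpG was 0.813, beside 0.579. CCAAT was in 63.2% of the members' windows and in 34.6% of all windows, GGGCGG in 71.1% and 45.0%, TATAAA in 5.26% and 11.5%, and the cAMP-response core TGACG in 39.5% and 24.6%. The E-box CACGTG was in 10.5% and 7.26%, AAGGTCA, the extended site of estrogen-related receptors, in 2.63% and 3.92%, and the forkhead motif TGTTTAC in none and 3.42%. Among members, the 7 URGs with a window had a median GC content of 60.7% and the 30 other tested members 69.3%. These are counts of letters in 300-base windows, with no test, and 31 of the 38 windows lie within 1000 bases of the GENCODE gene start. Those of *MPC2*, *PDP2*, *IDH1*, *IDH2*, *IDH3A*, *SUCLA2*, and *ACLY* lie farther away. The values of the URGs *IDH1* and *IDH2*, and the URG median that includes them, thus rest on windows away from that start.

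The clearest shift at pyruvate entry was among the 4 pyruvate dehydrogenase kinases: *PDK2*, *PDK3*, and *PDK4* were URGs, while *PDK1*, the hypoxia-responsive kinase, did not pass. *PDK4*, the kinase known for its induction by fasting and fatty acids (ENSG00000004799, chromosome 7 of GRCh38, 95583499 to 95596516), had counts of 11, 3, and 7 in DMSO and of 54, 20, and 27 in mocetinostat. Its levels were 0.995, 0.625, and 1.03 CPM in DMSO and 10.7, 12.4, and 11.2 CPM in mocetinostat. The gene went from a trace to a low level in every treated sample, with no overlap. *PDK4* passed the filter on low counts only through its mocetinostat samples, so only a call as higher was open to it. The edgeR log2 fold change was 3.59 (SE 0.42, adjusted p = 1.54e-11), a 12-fold difference, and it was 2.65 with every library thinned to the smallest total.

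*PDK3* (ENSG00000067992, chromosome X, 24465244 to 24550466) had 34.5, 32.7, and 28.4 CPM in DMSO and 66.4, 70.0, and 61.3 CPM in mocetinostat, means of 31.9 ± 3.10 and 65.9 ± 4.37 (SD, n = 3). *PDK2*, a kinase of most tissues (ENSG00000005882, chromosome 17, 50094737 to 50112152), had 22.0, 17.3, and 21.4 CPM in DMSO and 50.6, 39.0, and 36.5 in mocetinostat. Neither gene's groups overlapped. The log2 fold changes were 1.04 for *PDK3* (SE 0.13, adjusted p = 2.4e-10, edgeR) and 1.07 for *PDK2* (SE 0.16, adjusted p = 3.18e-08, edgeR), both just past the URG threshold. Leaving out a sample took *PDK3* under that threshold without DMSO replicate 3 (0.94) or mocetinostat replicate 2 (0.98), and *PDK2* without DMSO replicate 2 (0.95) or mocetinostat replicate 1 (0.87), with the adjusted p still under 0.05. *SAMD14* on the opposite strand overlaps 38.6% of the exon bases of *PDK2* and was higher by 2.99, with 27, 7, and 13 counts in DMSO and 100, 16, and 41 in mocetinostat; whether the counting used strand is not stated, so its reads and those of *PDK2* cannot be told apart there.

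*PDK1* had 30.9, 32.1, and 27.1 CPM in DMSO and 25.4, 29.1, and 20.3 in mocetinostat, with overlapping groups and a log2 fold change of -0.28 (95% interval -0.62 to 0.06, adjusted p = 0.147 in edgeR), which turned to 0.26 relative to *GAPDH*. The 4 kinases summed to 83.0 ± 5.22 CPM in DMSO and 144 ± 13.1 in mocetinostat (SD, n = 3), a ratio of 1.74. Within the kinases, shares of the summed CPM per kilobase of exon, which no scaling between libraries alters, lay lower for *PDK1* and higher for *PDK4* in every treated sample. *PDK1* made up 26.2% ± 2.86 in DMSO and 10.7% ± 1.45 in mocetinostat, and *PDK4* 2.50% ± 0.571 and 16.2% ± 2.1. *PDK2* had 47.7% and 48.9%, and *PDK3* 23.6% and 24.2%. These shares rest on the union of all annotated exons; with the length of the canonical transcript *PDK3* and not *PDK2* was the most abundant kinase, and *PDK1* went from 8.0% to 3.19% and *PDK4* from 0.923% to 5.76%.

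**Figure D2:**
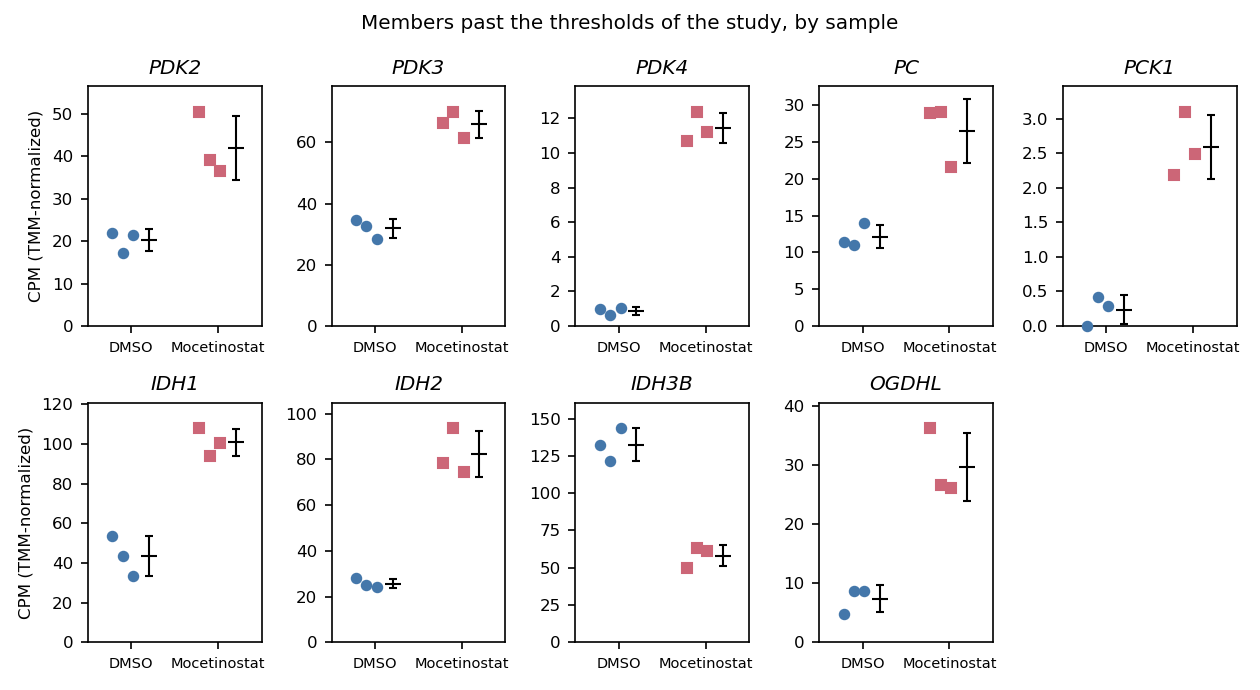
Level in CPM (y axis, each panel from 0) of the 9 members past the study's thresholds in each of the 3 DMSO and 3 mocetinostat samples (x axis), with 1 point per sample and the group mean ± SD beside them. The mocetinostat points lie above all DMSO points in the 8 URG panels and below them in the *IDH3B* panel; *PCK1* stays under 4 CPM in every sample.

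The phosphatases oppose the kinases, and neither was called lower. *PDP1*, the calcium-responsive phosphatase, had 134, 114, and 119 CPM in DMSO and 191, 162, and 203 in mocetinostat, with no overlap. It rose by 0.61 on the log2 scale (SE 0.10, adjusted p = 7.21e-08, edgeR). *PDP2* had 59.8 ± 6.06 and 70.7 ± 5.53 CPM (SD, n = 3), with a log2 fold change of 0.24 (95% interval -0.01 to 0.48, adjusted p = 0.0833, edgeR), although its treated samples all lay above its controls. In CPM per kilobase, *PDP1* was at 21.8 in DMSO and 33.1 in mocetinostat, above the other PDP and the PDK members with either gene length, the highest of which by union exons was *PDP2* at 7.27 and 8.61.

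Of the 5 genes of the complex itself, *DLAT* and *PDHX* were lower and the other 3 did not pass. *DLAT*, the acetyltransferase that forms the core, had 103, 98.5, and 84.7 CPM in DMSO and 49.2, 59.5, and 43.9 in mocetinostat, with no overlap and a log2 fold change of -0.93 (SE 0.12, adjusted p = 7.75e-10, edgeR), just short of the DRG threshold. Without DMSO replicate 3 or without mocetinostat replicate 2 it was -1.04 and past that threshold. *PDHX*, which binds the dehydrogenase DLD to that core, had 48.0, 37.7, and 49.5 CPM in DMSO and 32.1, 26.7, and 29.4 in mocetinostat. It was lower by a log2 fold change of -0.60 (SE 0.15, adjusted p = 0.000374, edgeR), which became -0.06 (adjusted p = 0.752, edgeR) relative to *GAPDH*.

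*PDHA1*, the catalytic alpha subunit that the PDKs phosphorylate, was the most abundant of the complex per kilobase of union exons (with canonical transcript lengths *PDHB* was) and had 124, 137, and 136 CPM in DMSO and 127, 113, and 142 in mocetinostat. The groups overlapped. Its log2 fold change was -0.05 (95% interval -0.25 to 0.15), that of its partner *PDHB* -0.13 (-0.38 to 0.12), and that of *DLD* -0.13 (-0.34 to 0.07), with adjusted p values of 0.69, 0.368, and 0.253 in edgeR, and all 3 turned positive relative to *GAPDH*. *MAP3K15* on the opposite strand, itself higher by 3.61, overlaps 19.3% of the exon bases of *PDHA1*, and its part in that value was not tested. Within each library, *DLAT* held 0.833, 0.721, and 0.622 counts per *PDHA1* count in DMSO and 0.389, 0.527, and 0.310 in mocetinostat, so every treated sample lay below every control in this ratio of core to catalytic subunit.

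The mitochondrial pyruvate carrier is a heterodimer of MPC1 and MPC2. *MPC2* had 22.5, 22.1, and 18.3 CPM in DMSO and 27.4, 40.3, and 28.6 in mocetinostat and was higher by 0.56 (SE 0.18, adjusted p = 0.00452, edgeR). This call was lost without mocetinostat replicate 2, the sample with its highest level, and without the filter on low counts (adjusted p = 0.237, edgeR). *DCAF6* on the opposite strand, itself higher by 0.38, covers 21.8% of the exon bases of *MPC2*, and its part in that value was not tested. *MPC1*, the most abundant of the pair per kilobase in DMSO with either length, had 18.2, 19.2, and 17.2 CPM in DMSO and 23.8, 9.30, and 21.6 in mocetinostat. Here mocetinostat replicate 2, with 15 counts, stood lowest of all samples, and the log2 fold change was 0.11 (95% interval -0.30 to 0.52, adjusted p = 0.652, edgeR). Its sign turned to -0.17 without mocetinostat replicate 1.

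Of the 3 genes that form oxaloacetate from pyruvate or phosphoenolpyruvate from oxaloacetate, *PC* and *PCK1* were URGs. Pyruvate carboxylase makes oxaloacetate from pyruvate, and its gene *PC* (ENSG00000173599, chromosome 11, 66848417 to 66958386) had 11.4, 11, and 14.0 CPM in DMSO and 28.9, 29.1, and 21.6 in mocetinostat. The groups did not overlap, and the log2 fold change was 1.13 (SE 0.20, adjusted p = 1.07e-06, edgeR); with libraries thinned to the smallest total it was 0.93. *PCK1*, the cytosolic phosphoenolpyruvate carboxykinase and a textbook gene of gluconeogenesis in liver (ENSG00000124253, chromosome 20, 57561080 to 57568121), had counts of 0, 2, and 2 in DMSO and of 11, 5, and 6 in mocetinostat. Every DMSO library was under the floor of 3 counts. *PCK1* thus passed the filter only through its mocetinostat samples, and only a call as higher was open to it. The treated mean of 2.59 CPM was 6.51-fold the 0.398 CPM that 3 counts make in a DMSO library of mean size. That ratio is no strict lower bound, since the treated counts were few and 3 counts make 0.625 CPM in DMSO replicate 2. The fitted log2 fold change of 3.60 (SE 0.81, 95% interval 2.00 to 5.21, adjusted p = 7.47e-05, edgeR) is no bound either and was 2.72 without DMSO replicate 1.

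*PCK2*, the mitochondrial isozyme and the most abundant gene of this step per kilobase, had 23.1 ± 2.09 CPM in DMSO and 27.7 ± 1.91 in mocetinostat (SD, n = 3). Its log2 fold change was 0.24 (95% interval -0.10 to 0.59, adjusted p = 0.219, edgeR). It held at least 94.0% of the summed CPM per kilobase of the pair in every sample, while the share of *PCK1* went from 0.614% ± 0.576 to 5.38% ± 0.561. *PCK1* was thus the minor isozyme in every sample.

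The isocitrate dehydrogenases did not move together, and *IDH3A* did not pass. *IDH1* in the cytosol and *IDH2* in mitochondria use NADP+ and were URGs, whereas *IDH3B*, a subunit of the NAD+-dependent enzyme of the cycle, was the DRG. *IDH2* (ENSG00000182054, chromosome 15, 90083045 to 90102477) had 28.0, 25.0, and 24 CPM in DMSO and 78.3, 93.6, and 74.6 in mocetinostat. It rose by 1.65 on the log2 scale (SE 0.13, adjusted p = 4e-18, edgeR), the smallest adjusted p of any member. *IDH1* (ENSG00000138413, chromosome 2, 208236229 to 208266074) had 53.6, 43.7, and 33.6 CPM in DMSO and 108, 94.2, and 100.3 in mocetinostat, a log2 fold change of 1.21 (SE 0.13, adjusted p = 2.6e-13, edgeR). Neither gene's groups overlapped, and the DMSO samples of *IDH1* were the more scattered.

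*IDH3B*, which encodes a regulatory subunit (ENSG00000101365, chromosome 20, 2658395 to 2664219), had 132, 122, and 144 CPM in DMSO and 50.0, 63.2, and 60.9 in mocetinostat, means of 132 ± 10.9 and 58.0 ± 7.08 (SD, n = 3). All treated samples lay far below all controls. The log2 fold change was -1.22 (SE 0.11, adjusted p = 2.59e-15, edgeR), and -0.69 relative to *GAPDH*, where the adjusted p still passed and the DRG threshold did not. *IDH3G*, the other regulatory subunit, had 45.8, 42.5, and 42.2 CPM in DMSO and 34.3, 20.5, and 37.7 in mocetinostat, lower by a log2 fold change of -0.44 (SE 0.15, adjusted p = 0.00871, edgeR) that became 0.09 relative to *GAPDH* and lost its call without mocetinostat replicate 2. *IDH3A*, the catalytic subunit, had 106 ± 7.26 and 99.7 ± 7.29 CPM (SD, n = 3), and its log2 fold change was -0.08, or 0.46 relative to *GAPDH* (95% interval of the first -0.29 to 0.13, adjusted p = 0.533, edgeR). *ACSBG1*, itself higher by 2.66, lies opposite 38.2% of the exon bases of *IDH3A*.

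Ratios of counts within a library do not depend on how libraries are scaled. Per *IDH3A* count there were 1.26, 1.08, and 1.46 *IDH3B* counts in DMSO and 0.511, 0.675, and 0.565 in mocetinostat, so this subunit ratio of the NAD+-dependent enzyme was lower in every treated sample than in any control. Per *IDH3B* count there were 0.212, 0.205, and 0.167 *IDH2* counts in DMSO and 1.57, 1.48, and 1.22 in mocetinostat. *IDH3B* held more counts than *IDH2* in each DMSO sample and fewer in each mocetinostat sample. Among the 3 genes that carry catalytic subunits, *IDH3A* went from 45.7% ± 3.40 to 22.3% ± 2.2 of the summed CPM per kilobase (SD, n = 3), *IDH2* went from 27.2% ± 1.4 to 44.9% ± 4.33, and *IDH1* from 27.1% ± 3.66 to 32.8% ± 2.74. These pairs and families were chosen with the fold changes known, and with 3 samples against 3 an exact permutation test of a ratio cannot give a p under 0.1.

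**Figure D3:**
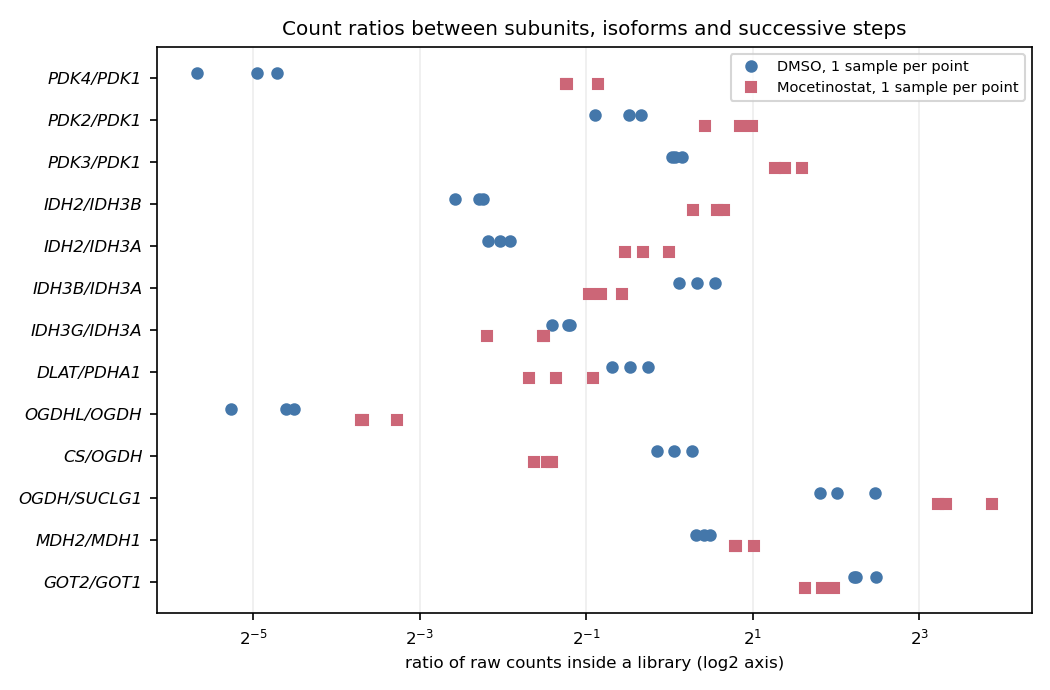
Ratio of the counts of 2 members within a library (x axis, log2 scale) for the pairs on the y axis, with 1 point for each of the 3 DMSO and 3 mocetinostat samples. For *PDK4* over *PDK1* the DMSO points lie at 0.0195 to 0.038 and the mocetinostat points at 0.422 to 0.551, and for *IDH3B* over *IDH3A* the mocetinostat points lie below all DMSO points.

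Upstream of isocitrate, citrate synthase and aconitase moved in opposite directions. *CS*, which condenses acetyl-CoA with oxaloacetate, had 224, 207, and 191 CPM in DMSO and 132, 125, and 108 in mocetinostat, with no overlap. It was lower by a log2 fold change of -0.77 (SE 0.10, adjusted p = 8.34e-11, edgeR), and of -0.23 relative to *GAPDH* (adjusted p = 0.0486, edgeR). As for *MPC2*, the calls of *ACO1*, *DLST*, *MDH2*, and *ME1* as higher were lost without the filter on low counts. *ACO1*, the cytosolic aconitase that also acts as an iron-responsive RNA-binding protein, was higher by 0.33 (SE 0.10, adjusted p = 0.00426, edgeR), from 97.9 ± 3.21 to 124 ± 9.10 CPM (SD, n = 3).

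The 2-oxoglutarate dehydrogenase complex was higher at the gene of each component specific to it, while succinyl-CoA synthetase, the next enzyme, was lower at all 3 subunits in the TMM-scaled fit but not relative to *GAPDH*, where *SUCLG1* was at 0.01, *SUCLG2* at 0.05, and *SUCLA2* at -0.03. *OGDH*, the dehydrogenase, had 185, 199.7, and 212 CPM in DMSO and 351, 346, and 334 in mocetinostat, with no overlap and a log2 fold change of 0.79 (SE 0.08, adjusted p = 1.11e-13, edgeR). *DLST*, its succinyltransferase core, was higher by 0.47 (SE 0.09, adjusted p = 9.84e-06, edgeR), from 129 ± 5.23 to 178 ± 8.52 CPM. *OGDHL*, the OGDH-like paralog that is best known from brain (ENSG00000197444, chromosome 10, 49734641 to 49762379), had counts of 53, 42, and 59 in DMSO and of 183, 43, and 63 in mocetinostat, which is 4.80, 8.75, and 8.70 CPM against 36.3, 26.7, and 26.1 CPM. Its groups did not overlap, DMSO replicate 1 was lowest, and mocetinostat replicate 1 was highest. *OGDHL* rose by 2.1 on the log2 scale (SE 0.22, adjusted p = 3.25e-13, edgeR) and remained the minor paralog, at 3.24% ± 0.820 of the summed CPM per kilobase of the pair in DMSO and 7.26% ± 1.15 in mocetinostat.

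*SUCLG1*, the alpha subunit of succinyl-CoA synthetase, had a log2 fold change of -0.53 (SE 0.15, adjusted p = 0.00155, edgeR), *SUCLG2*, the GTP-forming beta subunit, one of -0.49 (SE 0.15, adjusted p = 0.00249, edgeR), and *SUCLA2*, the ATP-forming beta subunit, one of -0.58 (SE 0.17, adjusted p = 0.00299, edgeR). *SUCLA2* had 38.9, 29.4, and 34.6 CPM in DMSO and 26.6, 13.6, and 25.7 in mocetinostat. Its groups did not overlap, and mocetinostat replicate 2, the shallowest library, was lowest, as it was for *MPC1* and *IDH3G*. Thinning all libraries to the smallest total left *SUCLA2* short of the threshold. Within a library, there were 3.50, 4.03, and 5.54 *OGDH* counts per *SUCLG1* count in DMSO and 10, 14.7, and 9.37 in mocetinostat, so this ratio of consecutive steps was higher in every treated sample than in any control, whatever the scaling. Likewise *CS* held 1.21, 1.04, and 0.901 counts per *OGDH* count in DMSO and 0.375, 0.361, and 0.324 in mocetinostat.

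At the end of the cycle, changes were small. *FH*, fumarase, was lower by a log2 fold change of -0.34 (SE 0.11, adjusted p = 0.00486, edgeR) that became 0.20 relative to *GAPDH*. *MDH2*, the mitochondrial malate dehydrogenase and the most abundant of this step per kilobase of union exons, had 135, 134, and 143 CPM in DMSO and 173, 169.8, and 163 in mocetinostat, with no overlap. It was higher by 0.30 (SE 0.09, adjusted p = 0.00356, edgeR). *MDH1* in the cytosol had 104 ± 4.04 and 92.5 ± 8.38 CPM (SD, n = 3), with a log2 difference of -0.15 (95% interval -0.37 to 0.06, adjusted p = 0.21, edgeR), which turned to 0.38 relative to *GAPDH*. *MDH2* made up 64.4% ± 1.33 of the summed CPM per kilobase of the pair in DMSO and 71.5% ± 1.83 in mocetinostat, but 44.1% and 52.2% with canonical transcript lengths, so which of the pair led in DMSO depended on the length used.

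The malic enzymes turn malate into pyruvate, and the 2 of them that held most counts were higher. *ME1*, the cytosolic NADPH-forming enzyme, had 61.2, 54.4, and 54.5 CPM in DMSO and 76.5, 81.2, and 86.6 in mocetinostat, with no overlap and a log2 fold change of 0.51 (SE 0.12, adjusted p = 0.000153, edgeR). *ME2* in mitochondria was higher by 0.60 (SE 0.12, adjusted p = 1.73e-05, edgeR), from 53.9 ± 7.31 to 82.2 ± 0.749 CPM. *ME3* held 35 to 108 counts in DMSO and 15 to 48 in mocetinostat, and its log2 fold change of -0.00 had an interval from -0.57 to 0.56 (adjusted p = 0.993, edgeR), so a moderate change either way was not detectable at this depth.

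Citrate export did not pass at either gene in the TMM-scaled fit of all samples. *ACLY*, ATP citrate lyase, was the most abundant member per kilobase in both conditions, at 106 and 95.1 CPM per kilobase. It had 573, 531, and 547 CPM in DMSO and 520, 518, and 447 in mocetinostat, all treated samples below all controls by a small margin. Its log2 fold change was -0.15 (95% interval -0.30 to -0.01, adjusted p = 0.064, edgeR). *ACLY* passed as lower in DESeq2 (adjusted p = 0.0257) and without the filter on low counts (1.37e-06, edgeR). It also did so without DMSO replicate 1, 2, or 3 or mocetinostat replicate 2 (0.0276 to 0.0408, edgeR). It did not pass with size factors, totals, the replicate block, or thinning, and it turned to 0.38 relative to *GAPDH*. *SLC25A1*, the mitochondrial citrate carrier, had 47.2 ± 4.62 and 50.8 ± 3.94 CPM (SD, n = 3), with a log2 fold change of 0.12 (95% interval -0.15 to 0.38, adjusted p = 0.449, edgeR).

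Among the glutamate and aspartate enzymes, *GOT2* and *GLUD1* were lower. *GOT2*, the mitochondrial aspartate aminotransferase, was the second most abundant member per kilobase in DMSO and had 286, 266, and 266 CPM there against 180.0, 185, and 192 in mocetinostat. Its groups lay far apart, and the log2 fold change was -0.56 (SE 0.08, adjusted p = 2.63e-08, edgeR), or -0.03 (adjusted p = 0.804, edgeR) relative to *GAPDH*. *GOT1*, its cytosolic partner, had 55.1 ± 6.72 and 53.2 ± 7.93 CPM (SD, n = 3), with a log2 fold change of -0.05 (95% interval -0.32 to 0.21, adjusted p = 0.747, edgeR), and 0.49 relative to *GAPDH*. *GLUD1*, glutamate dehydrogenase, was lower by a log2 fold change of -0.43 (SE 0.11, adjusted p = 0.00042, edgeR), turning to 0.10 relative to *GAPDH*; its 4 named copies held 86 counts beside its 3166.

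*GLS2*, the liver-type glutaminase, had counts of 4, 0, and 1 in DMSO and of 11, 3, and 4 in mocetinostat and was removed by the filter on low counts. Without the filter its edgeR log2 fold change was 2.85 (adjusted p = 0.0208), and DESeq2 gave 3.25 (adjusted p = 0.0252). Exons of *SPRYD4* on the opposite strand cover 77.1% of its exon bases, so these few reads cannot be assigned to *GLS2* with certainty. *SPRYD4* itself was lower, with a log2 fold change of -1.47 (adjusted p = 5.68e-07, edgeR), and its part in the *GLS2* counts was not tested.

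Ordered by CPM per kilobase, the DMSO cells had *ACLY* at 106, *GOT2* at 72.7, *IDH3B* at 51.6, *OGDH* at 38.2, *MDH2* at 37.7, *CS* at 32.4, and *DLST* at 28.3 as their leading members. In mocetinostat the order was *ACLY* at 95.1, *OGDH* at 66.0, *GOT2* at 49.4, *MDH2* at 46.4, and *DLST* at 39.1, with *IDH3B* at 22.6 in place 11 and *CS* at 19.0 in place 15. In DMSO, *OGDH* and *MDH2* did not differ beyond their spread. With canonical transcript lengths *ACLY*, *GOT2*, and *IDH3B* were still the first 3 in DMSO and *ACLY* and *OGDH* the first 2 in mocetinostat, while *MDH1* was in place 4 and *OGDH* in place 8 in DMSO. The URGs sat low in the order by union exons in DMSO: the largest, *IDH1* and *IDH2*, were at 9.28 and 9.21, and *PDK4* and *PCK1* were at 0.194 and 0.0347. Genes as low in DMSO as *PDK4* and *PCK1* could be tested only if higher in mocetinostat, so their low places are no separate result. The step sums were uneven too, with 461 CPM in DMSO against 379 in mocetinostat for the pyruvate dehydrogenase complex, 462 against 636 for 2-oxoglutarate dehydrogenase with succinyl-CoA synthetase, 119 against 172 for the malic enzymes, and 436 against 320.0 for the glutamate and aspartate enzymes. The sum of 462 against 636 pools higher dehydrogenase genes with lower synthetase genes. Fumarase with malate dehydrogenase stayed at 346 against 345. Citrate synthase, aconitase, and isocitrate dehydrogenase summed to 656 against 617, and citrate export to 598 against 546. The pyruvate carrier had 39.15 against 50.3, the phosphatases 182 against 256, and pyruvate carboxylase with phosphoenolpyruvate carboxykinase 35.5 against 56.8.

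A related list held 31 genes, 8 of them transcription regulators and the others genes of the same metabolism, and 27 of the 31 were tested. Of these, 4 were URGs and none was a DRG, beside 20.2% and 8.18% of all tested genes, 8 were higher and 8 lower at the adjusted p of edgeR, beside 32.9% and 31.4%, and 11 did not pass, with a median log2 fold change of -0.02. Succinate dehydrogenase, which links the cycle to the respiratory chain, was lower at *SDHB* (-0.40), *SDHC* (-0.74), and *SDHD* (-0.80) and not at its flavoprotein *SDHA* (-0.08), but relative to *GAPDH* none of the 3 passed and *SDHB* and *SDHA* turned positive. Its assembly factor *SDHAF3* was higher (0.98). *PDPR*, a regulator of the phosphatases, was lower (-0.83), and so was the lipoylation gene *LIAS* (-0.62, adjusted p = 0.0208, edgeR). *LIPT1*, which attaches the lipoyl group that DLAT and DLST carry, did not pass (-0.10). Among genes that exchange pyruvate with lactate and alanine, *LDHB* was lower (-0.71) but did not pass relative to *GAPDH* (-0.17, adjusted p = 0.439, edgeR). With TMM scaling *LDHA* was lower by less (-0.21, adjusted p = 0.00857, edgeR), and *GPT2* was at -0.01. Of the mitochondrial carriers, *SLC25A10* was higher (0.78, adjusted p = 0.0322, edgeR) and *SLC25A13* did not pass (-0.23). The call of *SLC25A10* was lost in DESeq2 (adjusted p = 0.136), without the filter on low counts (0.277, edgeR), and without DMSO replicate 1 (0.121) or 2 (0.0963) or mocetinostat replicate 2 (0.150) or 3 (0.0806).

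Both tested acetyl-CoA synthetases, which make acetyl-CoA from acetate, were URGs. *ACSS2*, in the cytosol and nucleus, had 26.0, 28.3, and 22.3 CPM in DMSO and 62.7, 82.4, and 59.7 in mocetinostat, a log2 fold change of 1.4 (SE 0.14, adjusted p = 7.11e-14, edgeR). *ACSS1* in mitochondria had 16.2, 12.9, and 14.7 CPM in DMSO and 46.2, 21.7, and 36.5 in mocetinostat, a log2 fold change of 1.31 (adjusted p = 5.82e-09, edgeR). Neither overlapped. There were 0.0453, 0.0533, and 0.0407 *ACSS2* counts per *ACLY* count in DMSO and 0.120, 0.159, and 0.133 in mocetinostat, so *ACLY* held far more counts in every sample. Among the transcription regulators on the related list, *PPARGC1A* (5.05) and *FOXO1* (2.39) were URGs, and *MYC* was lower (-0.26) with TMM scaling and higher (0.27) relative to *GAPDH*. *PPARGC1A* had counts of only 10, 4, and 1 in DMSO and passed the filter only through its mocetinostat samples. *FOXO1* had 2.71, 3.33, and 3.24 CPM in DMSO and 17.5, 8.06, and 20.7 in mocetinostat. Whether these regulators act on the members here was not tested. At the adjusted p of edgeR, *HIF1A* (0.66) and *PPARA* (0.61) were also higher, and *ESRRA* (0.02) and *PPARD* (0.26) did not pass.

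**Figure D4:**
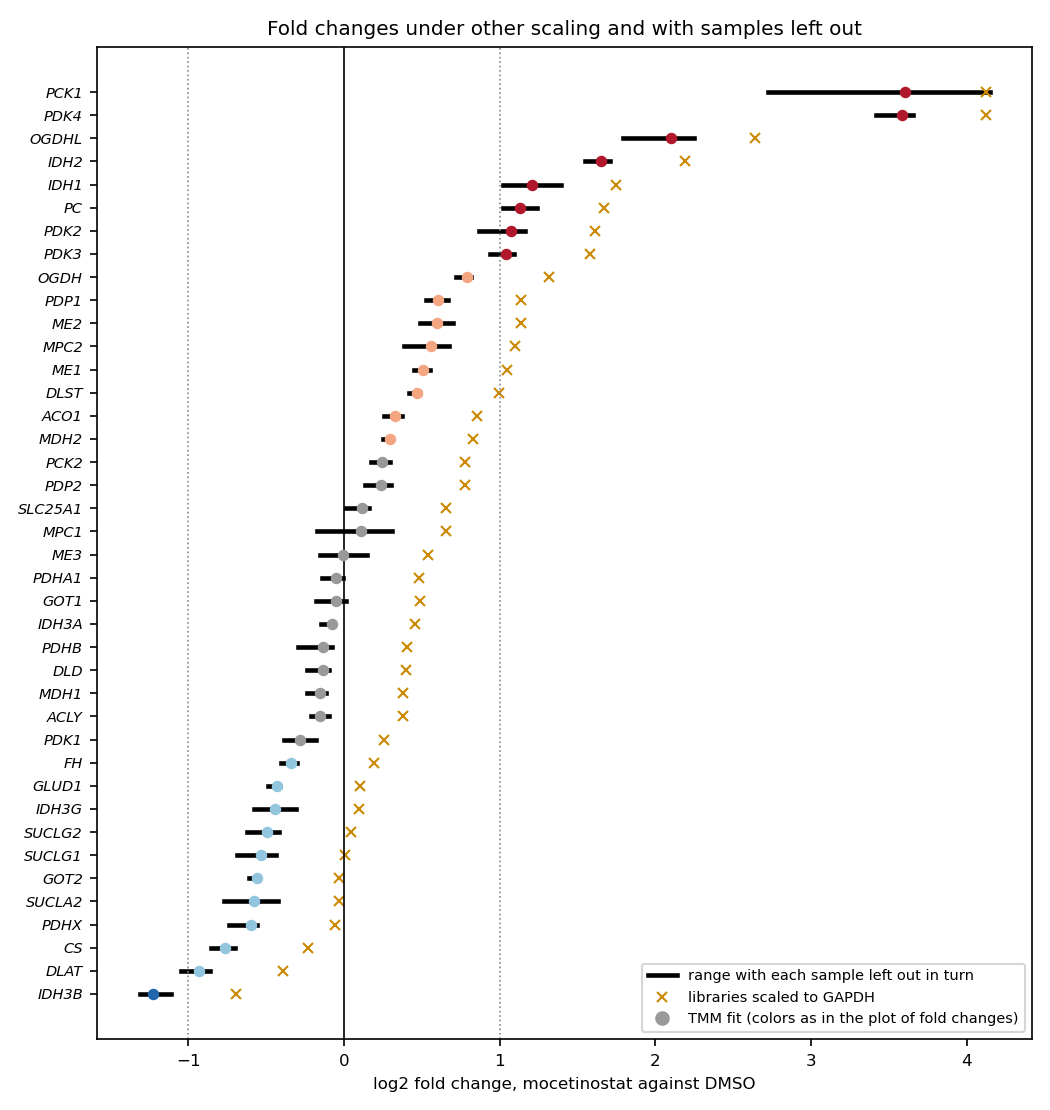
Log2 fold change of the 40 tested members (x axis; members on the y axis in the order of their fold change), with points for the TMM-scaled fit, crosses for libraries scaled to *GAPDH*, black bars for the range over leaving out each of the 6 samples in turn, and lines at 0, 1, and -1. The crosses lie to the right of the points for every member, and the bars of *PCK1*, *PDK4*, *OGDHL*, *IDH2*, *IDH1*, and *PC* stay above 1 while those of *PDK2* and *PDK3* reach below it.

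Chondrocyte identity was checked in the same libraries. *SOX9*, the chondrocyte regulator, was at 106 CPM in DMSO and 180.0 in mocetinostat, 5 of the 7 chondrocyte markers (*COL2A1*, *ACAN*, *COL11A2*, *COMP*, and *MATN3*) were URGs, and *COL9A1* had no counts in 1 sample of each condition and at most 6 elsewhere. Of 6 markers of other cell types, 4 were URGs: the epithelial *EPCAM* at 0.317 and 7.81 CPM and *CDH1* at 0.258 and 19.8, the myeloid *CD14* at 0.915 and 7.46, and the endothelial *PECAM1* at 1.27 and 5.51. These 4, like the chondrocyte marker *COMP*, passed the filter on low counts only through their mocetinostat samples. The endothelial *CDH5* did not pass, and *PTPRC*, the pan-leukocyte marker, had no counts in 1 sample of each condition and at most 9 elsewhere. The 6 markers summed to 5.45 to 8.12 CPM in DMSO and 39.0 to 52.1 CPM in mocetinostat, and their part in the member results was not tested. Fewer cells of a type and less RNA per cell cannot be told apart in such bulk libraries.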

How the data were processed

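RNA-Seq of 6 samples was analyzed from a table of raw gene counts. Per the labels and the study's methods, the authors prepared libraries from total RNA with ribosomal depletion, sequenced single reads, aligned them to GRCh38 with STAR 2.6.1d, and deposited counts per gene made by featureCounts 1.6.4 (the labels also name DESeq2 1.20.0). The strand setting and the treatment of multi-mapped reads are not given in the sources used here. Totals were 1619344 to 11031132 counts per sample, and 1 count was worth 0.0905 to 0.620 CPM, the count scaled by the library total.

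Counts were tested with edgeR 4.0.16 in R 4.3.3 (filterByExpr with a minimum count of 10, TMM scaling, quasi-likelihood test, treatment as the only term, Benjamini-Hochberg adjustment over all 13966 genes kept). The common biological coefficient of variation was 9.3%. Calls used the thresholds of the study, 0.05 for the adjusted p and 1 for the size of the log2 fold change. CPM used TMM-scaled totals, and levels between genes used CPM per kilobase of the union of GENCODE 44 exons. The fits were tested on simulated data. Alternatives were DESeq2 1.42.0, other scalings (size factors, totals, *GAPDH*), other filters, glmTreat, a replicate block, thinning, and leaving out each sample. Canonical transcript lengths were added after the data were seen. No columns or samples were left out.

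The members and all gene lists were chosen with earlier results of these data known. Every member is named; full values are given for members past the study's thresholds and for the most abundant member per kilobase of each role, and related genes were named when called or at either end of their list. Other related genes and features were chosen after their values were seen. Promoter windows came from RefSeq on GRCh38.p14. The tests compare the treatment difference with the spread between the 3 samples per condition, which edgeR estimates by sharing information across genes. The count floor covers counting error only.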

Additional observations from a re-analysis of the deposited data

How the results depend on the processing

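The calls of *PDK4*, *PCK1*, *IDH2*, and *OGDHL* held in each of the 12 to 14 alternatives that gave each gene a value; glmTreat was run for the counts of calls only. Relative to *GAPDH*, which moved the median of all genes by 0.54, 13 members were URGs, 0 were DRGs, 27 were higher, and 3 were lower, and 8 related genes were called; the added URGs were *MPC2* (1.1), *PDP1* (1.14), *OGDH* (1.32), *ME1* (1.05), and *ME2* (1.13). Without the filter, which moved that median by -0.25, 5 members were URGs (7.9% of all tested genes were), 3 were DRGs (5.23%), 12 were higher (10.5%), 18 were lower (13.9%), and 7 related genes were called; *MPC2* (adjusted p = 0.237), *ACO1* (0.628), *DLST* (0.103), *MDH2* (0.751), and *ME1* (0.129) were no longer higher in this edgeR fit, *PDK2* (0.82), *PDK3* (0.79), *PC* (0.88), and *IDH1* (0.95) were no longer URGs, and *DLAT* (-1.18) and *CS* (-1.02) became DRGs. With glmTreat, which tests against the fold threshold itself, 4 members were URGs (14.8% of all tested genes were). Leaving out each sample gave 7 to 8 URGs, 1 to 2 DRGs, 15 to 17 members higher, 11 to 12 lower, and 4 to 6 related genes called; the second DRG was *DLAT*, without DMSO replicate 3 or mocetinostat replicate 2. Deviations of same-numbered samples from their group means had correlations of 0.008, 0.012, and -0.016. With 3 samples per condition and counting noise in shallow libraries, such values cannot exclude that the numbers pair samples. With the replicate block there were 8 URGs, 1 DRG, 16 members higher, 11 lower, and 4 related genes called. The cause of these changes was not tested.

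Log2 fold changes that turned positive relative to *GAPDH* were those of *PDHA1* (0.48), *PDHB* (0.40), *DLD* (0.40), *PDK1* (0.26), *IDH3A* (0.46), *IDH3G* (0.094), *SUCLG1* (0.0089), *SUCLG2* (0.047), *FH* (0.20), *MDH1* (0.38), *ME3* (0.54), *ACLY* (0.38), *GLUD1* (0.10), *GOT1* (0.49), *SDHA* (0.46), *SDHB* (0.135), *LIPT1* (0.43), *GPT2* (0.52), *SLC25A13* (0.31), and *MYC* (0.27). Without the filter, *MPC1* (-0.13), *PDP2* (-0.014), *PCK2* (-0.0062), and *SLC25A1* (-0.13) turned negative. With at least 10 counts in every sample, *PDHA1* (0.031), *IDH3A* (0.0011), *ME3* (0.075), *GOT1* (0.027), *SDHA* (0.0016), and *GPT2* (0.066) turned positive, as did *PDHB* (0.015), *ME3* (0.25), and *SDHA* (0.23) after thinning, *ME3* (0.014) and *GPT2* (0.0065) with size factors, and *ME3* (0.01) and *GPT2* (0.0037) with totals. Leaving out each sample gave -0.16 to 0.15 for *ME3*, -0.18 to 0.012 for *GOT1*, -0.17 to 0.31 for *MPC1*, -0.10 to 0.04 for *GPT2*, -0.32 to 0.19 for *LIPT1*, and -0.19 to 0.020 for *SDHA*; none of these 6 genes passed the threshold with all samples in.

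With canonical transcript lengths, the DMSO and mocetinostat shares were 8.0% and 3.19% for *PDK1*, 22.6% and 22.5% for *PDK2*, 68.5% and 68.5% for *PDK3*, 0.923% and 5.76% for *PDK4*, 34.3% and 44% for *IDH1*, 17.8% and 31.3% for *IDH2*, 47.8% and 24.7% for *IDH3A*, 0.507% and 4.48% for *PCK1*, 99.5% and 95.5% for *PCK2*, 96% and 91.1% for *OGDH*, 4% and 8.86% for *OGDHL*, 55.9% and 47.8% for *MDH1*, and 44.1% and 52.2% for *MDH2*. With these lengths the most abundant member was *PDHB* in place of *PDHA1*, *PDK3* in place of *PDK2*, *MDH1* in place of *MDH2* in DMSO, and *IDH1* in place of *IDH2* among its role in mocetinostat. The shallow treated libraries limit *PCK1*, *GLS2*, *PDK4*, and *ME3* most.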
